A study of Mus musculus with 56 samples.

Results

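Acetylation of histone H3 at lysine 27 (H3K27Ac) was mapped by ChIP-seq in bone marrow-derived macrophages (BMDMs) with or without 1 hr of interleukin-4 (IL-4), and 1295 regions were listed only after IL-4. These gained regions were defined by joining regions of the 4 H3K27Ac lists that overlapped by at least 1 bp and keeping those with a region in both 1hIL4 lists and in neither ctrl list. They were 4.05% of the 31999 merged regions. In comparison, 1492 merged regions were in both ctrl lists and neither 1hIL4 list (lost regions), and 23151 were in all 4 lists. Because presence in the H3K27Ac lists chose the gained regions, their H3K27Ac signal is given as a description and was not tested.

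The cells were wild-type C57BL/6 BMDMs from mice of 8 to 12 weeks, differentiated for 6 days with L929 supernatant, a source of macrophage colony-stimulating factor. The 1 hr experiment compared untreated cells (ctrl) with cells given 20 ng/ml IL-4 (1hIL4) for H3K27Ac, PU.1, p300, HDAC1, HDAC2, HDAC3 and RNA polymerase II phosphorylated at serine 5 (RNAPII-pS5) or serine 2 (RNAPII-pS2). A second experiment pretreated cells with IL-4 for 24 hr and then gave lipopolysaccharide (LPS, 100 ng/ml) for 1 hr or not, for RNAPII-pS5, RNAPII-pS2 and the NF-kB subunit p65. All cells of both experiments had the same differentiation, and every group had 2 replicates, described by the study as independent biological replicates. In such bulk samples, fewer cells carrying a mark and less of the mark per cell cannot be told apart.

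IL-4 binds a receptor whose Janus kinases phosphorylate the transcription factor STAT6, which dimerizes, enters the nucleus and binds palindromic DNA in which TTC and GAA are separated by 4 bases. H3K27Ac marks active promoters and enhancers, p300 is an acetyltransferase that deposits it, and the histone deacetylases HDAC1, HDAC2 and HDAC3 remove acetyl groups as parts of corepressor complexes. PU.1 is a lineage-determining factor that occupies enhancers of macrophages, and RNAPII-pS5 and RNAPII-pS2 are the initiating and elongating forms of the polymerase.

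Features of the lists limit what follows. In the RNAPII-pS2 libraries of the 1 hr experiment the peak names carried the opposite treatment to the labels: all 16689 and 20677 peaks of the lists labelled ctrl were named for IL-4, and all 16479 and 19492 peaks of the lists labelled 1hIL4 were named for vehicle. The labels were followed, and no direction of RNAPII-pS2 at 1 hr is read here as an effect of IL-4. The p300 list of ctrl replicate 1 held 44787 peaks, compared with 66710 to 69360 in the other p300 lists, so p300 counts are also given without it. The labels and the ChIP-seq methods give the HDAC3 antibody the catalogue number of the H3K27Ac antibody, and the study's reagent list gives another number, so the HDAC3 lists are taken as labelled. Which number is right was not tested. If the shared number is right, the HDAC3 lists hold H3K27Ac, and the HDAC3 results below are not independent of the rule that chose the regions. Of 10 macrophage genes, H3K27Ac regions lay at the start (within 2500 bp, or annotated as promoter) of 3 in each ctrl list and 4 in each 1hIL4 list (summed signal 1154 to 1215 and 2271 to 2315), and those without one in any list included Spi1, Itgam, Adgre1, Cd68 and Lyz2. The p300 and RNAPII-pS5 lists had peaks at the starts of 8 of the same 10 genes in every sample, Spi1 and Adgre1 being the exceptions, so a start without a listed H3K27Ac region can still hold p300 and polymerase. The word gained therefore means newly listed: whether a region missing from a ctrl list lacked the mark or was only left unlisted was not tested. Regions stood at 1 of 5 T cell genes, 1 of 5 B cell genes (summed signal 280.9 to 281.2 in ctrl and 171.8 to 178.8 after IL-4), 1 of 5 erythroid genes and none of 5 fibroblast genes in every list. They stood at 2 of 4 adipocyte or endothelial genes (49.1 to 55.6 in ctrl, 200 to 202.7 after IL-4, without Cdh5 and Kdr) and at 0 of 5 neutrophil genes in ctrl and 1 of 5 after IL-4 (23.3 to 25.2). The part of these marker differences in the gained regions was not tested.

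Reference sequence shows the motif that many of the gained regions shared. The windows below are 200 bases of GRCm38 (RefSeq) on the plus strand, centred on the highest p300 peak, from gained regions at IL-4-responsive genes or with the smallest p for p300. Capitals mark the STAT6-type motif, TTC and GAA separated by 4 bases, and the Klf4 window is shown because it holds none although p300 was called higher there, as was also so at both Bcl6 regions, Il4ra and the Slc7a2 region nearer its start, which are not shown.
Pdcd1lg2 chr19:29410776-29410975: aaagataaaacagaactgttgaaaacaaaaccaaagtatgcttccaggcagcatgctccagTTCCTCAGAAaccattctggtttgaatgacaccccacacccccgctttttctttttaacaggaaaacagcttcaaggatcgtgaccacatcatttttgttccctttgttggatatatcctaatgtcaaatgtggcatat
Slc7a2 chr8:40851069-40851268: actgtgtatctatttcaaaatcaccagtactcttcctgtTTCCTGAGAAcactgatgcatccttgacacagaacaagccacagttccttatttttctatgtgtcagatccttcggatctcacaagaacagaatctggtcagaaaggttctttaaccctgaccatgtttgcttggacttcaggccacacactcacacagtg
Fcgr2b chr1:170959914-170960113: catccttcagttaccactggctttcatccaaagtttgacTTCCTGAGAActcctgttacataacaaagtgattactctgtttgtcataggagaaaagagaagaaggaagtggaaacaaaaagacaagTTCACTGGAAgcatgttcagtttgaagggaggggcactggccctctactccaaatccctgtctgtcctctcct
Socs1 chr16:10745346-10745545: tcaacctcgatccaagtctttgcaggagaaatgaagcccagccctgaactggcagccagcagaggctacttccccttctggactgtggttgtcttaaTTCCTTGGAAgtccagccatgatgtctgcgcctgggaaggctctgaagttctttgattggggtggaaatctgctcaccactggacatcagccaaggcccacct
Pim3 chr15:88855563-88855762: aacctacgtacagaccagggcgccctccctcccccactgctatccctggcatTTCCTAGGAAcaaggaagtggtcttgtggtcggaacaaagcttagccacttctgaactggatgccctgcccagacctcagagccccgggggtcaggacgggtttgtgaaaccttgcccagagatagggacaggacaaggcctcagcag
Akirin2 chr4:34457296-34457495: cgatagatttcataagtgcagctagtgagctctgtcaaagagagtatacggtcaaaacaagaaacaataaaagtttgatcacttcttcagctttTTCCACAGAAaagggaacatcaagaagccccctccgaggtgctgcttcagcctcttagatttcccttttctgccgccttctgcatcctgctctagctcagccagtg
Slc1a2 chr2:102791820-102792019: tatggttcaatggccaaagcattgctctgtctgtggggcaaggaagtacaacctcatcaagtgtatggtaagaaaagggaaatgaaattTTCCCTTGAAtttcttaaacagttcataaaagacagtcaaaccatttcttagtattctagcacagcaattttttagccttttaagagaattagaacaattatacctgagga
Klf4 chr4:55567317-55567516: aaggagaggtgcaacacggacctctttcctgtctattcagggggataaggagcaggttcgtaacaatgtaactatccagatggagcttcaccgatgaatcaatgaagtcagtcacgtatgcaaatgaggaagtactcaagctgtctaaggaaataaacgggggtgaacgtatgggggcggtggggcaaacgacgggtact

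The first window lies at the start of Pdcd1lg2, which encodes the checkpoint ligand PD-L2, and the second lies upstream of Slc7a2, which encodes a transporter of cationic amino acids. Fcgr2b encodes the inhibitory Fc receptor, and its window holds the motif at 2 positions. Socs1 encodes a suppressor of cytokine signaling and Pim3 a serine/threonine kinase. Akirin2 and Slc1a2 are the deposited nearest genes of intergenic regions 93285 bp upstream and 85555 bp downstream of their starts.

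Of the 1295 gained regions 1246 had a p300 peak and so a 300-bp window centred on its midpoint. The STAT6-type motif, whose pattern reads the same on both strands, was in 546 of these windows (43.8%, 95% Wilson interval 41.1 to 46.6). It was in 4.63% of windows at lost regions (interval 3.66 to 5.84), in 9.76% of those in all 4 lists (9.38 to 10.2) and in 11.3% of all 30921 windows. These intervals cover counting error only. The motif lay near the p300 midpoint: its centre was within the 50 bp before the midpoint in 13.5% of the gained windows and within the 50 bp after it in 13.8%, whereas in the lost regions no 50-bp bin exceeded 1.66%. The median GC content was 45.3% in gained windows, 46.0% in lost windows and 49.0% in the windows of all 4 lists. Away from starts, more than 1000 bp from the nearest one, the share was 46.8% in gained regions, 4.49% in lost regions and 10.9% in regions of all 4 lists.

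**Figure D1:**
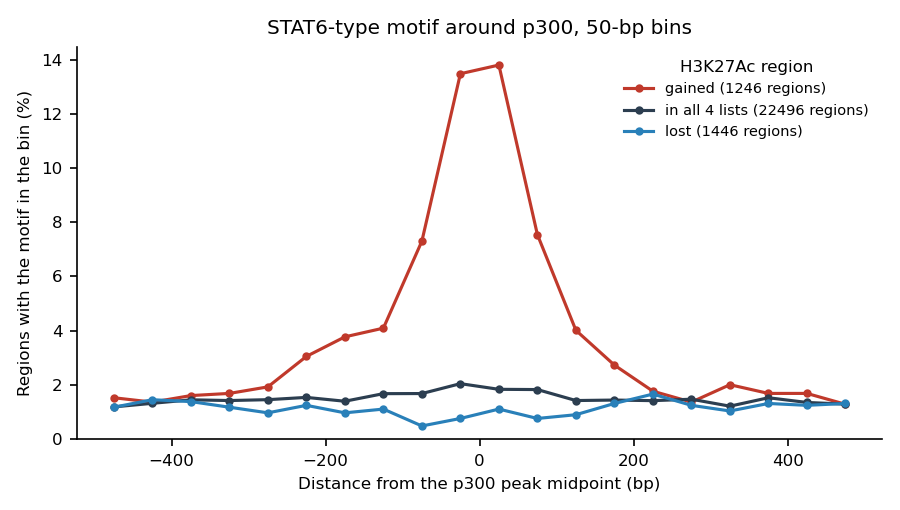
Share of regions (%, vertical axis) with the STAT6-type motif in each 50-bp bin against distance from the midpoint of the highest p300 peak (bp, horizontal axis), for gained, lost and always listed H3K27Ac regions. The gained regions rise to 13.8% at the midpoint and no bin of the other classes exceeds 2.05%.

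Motifs of other factor families were searched in the same windows, on both strands. GAGGAAGT, a PU.1-type sequence, was in 11.6% of gained windows, 14.1% of lost windows and 11.6% of all windows. The AP-1-type TGANTCA was in 20.9% of gained, 27.5% of lost and 19.6% of all windows. The C/EBP-type TTGCNNAA was in 19.2% of gained, 22.1% of lost and 17.5% of all windows, and an NF-kB-type motif, GGGA and CC separated by 4 bases, in 14% of gained, 14.1% of lost and 16.4% of all windows. A related STAT sequence with a shorter spacer, TTCNNNGAA, was in 19.4% of gained, 7.54% of lost and 10.4% of all windows, and 73 of the 546 gained windows with the STAT6-type motif also held it. A match is a description of the letters and not of a bound factor.

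The gained regions lay mostly away from promoters. By the deposited annotation 614 (47.4%) were in introns, 532 (41.1%) were intergenic and 79 (6.10%) were at promoters, compared with 19.2% at promoters among regions in all 4 lists and 4.69% among lost regions. A gene start lay within 1000 bp of 172 gained regions (13.3%), of 34.0% of regions in all 4 lists and of 7.24% of lost regions. The median distance to the start of the nearest gene was 24123 bp, compared with 11300 bp for regions in all 4 lists and 26746 bp for lost regions. The centre of 93 gained regions (7.18%) lay in an LTR and of 35 (2.70%) in a CpG island. The regions were 1001 to 1824 bp wide.

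Most gained regions were weak. Their H3K27Ac signal (tags in the region per 10000000 tags of the library) had a median of 27.5 in replicate 1 and 27.4 in replicate 2 after IL-4, with ranges of 9.9 to 1208 and 9.7 to 1185. The replicates of a region differed by a median of 0.12 on the log2 scale, and 0 members differed by more than 1. In both replicates 439 members were below 20, near the lowest listed signals of 9.1 to 9.6, and 163 had a mean over 200. The nearest ctrl region was a median of 11737 bp away, and 116 gained regions (8.96%) had one within 2500 bp. Just outside the rule, 420 regions were in both 1hIL4 lists and ctrl replicate 1 (median 31.1 and 30.2 after IL-4, 21.2 in ctrl) and 400 in both 1hIL4 lists and ctrl replicate 2 (19.9 and 19.8, 14.1 in ctrl). A single 1hIL4 list held 638 or 636 further regions, each set with a median of 14.2.

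The strongest gained region lay in the intron next to the start of Csf1r, the receptor of macrophage colony-stimulating factor, with an H3K27Ac signal of 1208 and 1185. Its p300 scores were 33.2 and 77.8 in ctrl and 57.2 and 63.5 after IL-4, and its PU.1 scores were 112 and 68.3 in ctrl and 116 and 96.7 after IL-4, so the groups overlapped for both factors. RNAPII-pS5 there was 42.7 and 29.9 in ctrl and 39.4 and 38.5 after IL-4, also overlapping. The lowest signal listed in ctrl was 9.1, and this region was not listed there, while peaks of all 3 antibodies were present in every library. The next by signal lay near Zc3h4 (918 and 882) and Slfn2 (899.6 and 873), followed by regions near Cerk, Ctsb, Fyb, Picalm, Pltp, Mir339 and Mcl1 at 634 to 746. Of these 10 regions, only the one near Mir339 was called higher for p300 (43.2 and 124 in ctrl, 240.5 and 238 after IL-4, log2 difference 0.98, limma adjusted p = 0.00229) and RNAPII-pS5 (log2 difference 1.10, limma adjusted p = 0.0178).

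p300, the acetyltransferase, was higher after IL-4 at most gained regions. In ctrl 678 and 984 gained regions held a p300 peak (52.4% and 76.0%), and after IL-4 1220 and 1237 did (94.2% and 95.5%), whereas among all merged regions the shares were 78.1% and 92.3% in ctrl and 93.5% and 94.3% after IL-4. Both 1hIL4 scores exceeded both ctrl scores, after each library was centred, at 978 of the 1295 gained regions (75.5%), and both were below at 64, compared with 29.2% and 28.8% of all merged regions. A peak was in both 1hIL4 lists and neither ctrl list at 231 gained regions (17.8%, compared with 2.60% of all merged regions), and 49 had no p300 peak.

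In limma with Benjamini-Hochberg adjustment, 814 gained regions were called higher and 14 lower for p300, where 12.2% of all tested regions were called higher and 9.34% lower. The test was run on the 1224 gained regions that held a p300 peak in 2 or more lists, and a region could enter it through its IL-4 peaks alone, its ctrl scores then being set to the lowest listed score. Such regions, with no ctrl peak, were 206 of the 814, and with a peak required in all 4 lists 389 of 665 were higher and 19 lower. For all antibodies, no p is given below for a single region that had no peak in either library of 1 group, since its difference rests on that set value. At the lost regions 19 were called higher and 347 lower. Without ctrl replicate 1, 870 gained regions were called higher and 20 lower. Leaving out 1hIL4 replicate 1 or 2 gave 486 or 508 higher, and without centring, whose removal put the median log2 difference of all tested regions at 0.74 in place of 0.01, 508 were higher and 0 lower.

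The smallest p-values for p300 belonged to intergenic regions near Igf1, Slc1a2 and Akirin2. Upstream of Igf1, the gene of insulin-like growth factor 1, the scores were 3.30 and 13.0 in ctrl and 269 and 285 after IL-4 (log2 difference 4.67, SE 0.22, limma adjusted p = 2.11e-08). Upstream of Akirin2, which encodes a nuclear cofactor, they were 4.29 and 15.2 in ctrl and 262 and 262 after IL-4 (log2 difference 4.29, SE 0.20, limma adjusted p = 2.11e-08). Downstream of the start of Slc1a2, which encodes a glutamate transporter, there was no peak in ctrl replicate 1, 4.93 in ctrl replicate 2, and 273.5 and 268 after IL-4. The groups did not overlap at any of the 3 regions.

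The 14 lower calls were made with centring, and 0 gained regions were called lower without it. At the regions named below, both 1hIL4 scores were under ctrl replicate 2 and over ctrl replicate 1, whose list was the shortest. At Tmed10 the deposited p300 scores were 25.7 and 83.6 in ctrl and 30.5 and 34.1 after IL-4, at Rbm47 42.9 and 129 against 61.2 and 51.0, and at Cdt1, the gene of a DNA replication licensing factor, 51.7 and 139.6 against 65.1 and 77.5. In each case both 1hIL4 scores lay between the ctrl scores, and the fitted log2 differences of −1.25, −1.14 and −0.99 had limma adjusted p of 0.000728, 0.00053 and 0.00162.

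p300 varied with the strength of the gained region. Of the 491 regions with a mean H3K27Ac signal under 20, 301 (61.3%) were called higher for p300, compared with 247 of 297 (83.2%) between 20 and 40, 146 of 201 (72.6%) between 40 and 80, 61 of 107 (57.0%) between 80 and 160, 42 of 112 (37.5%) between 160 and 320, and 17 of 87 (19.5%) above that. The strongest gained regions more often held peaks before IL-4: p300 was in both ctrl lists at 44.8% of the weakest and 77.0% of the strongest class, PU.1 at 30.1% and 72.4%, and RNAPII-pS5 at 5.50% and 88.5%. They were also nearer to starts, with 6.31% of the weakest and 36.8% of the strongest within 1000 bp. p300 was called higher at 779 of 1123 gained regions (69.4%) beyond 1000 bp of a start and at 35 of 172 (20.3%) within it, and at 768 of the 1179 regions with no ctrl region within 2500 bp.

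**Figure D2:**
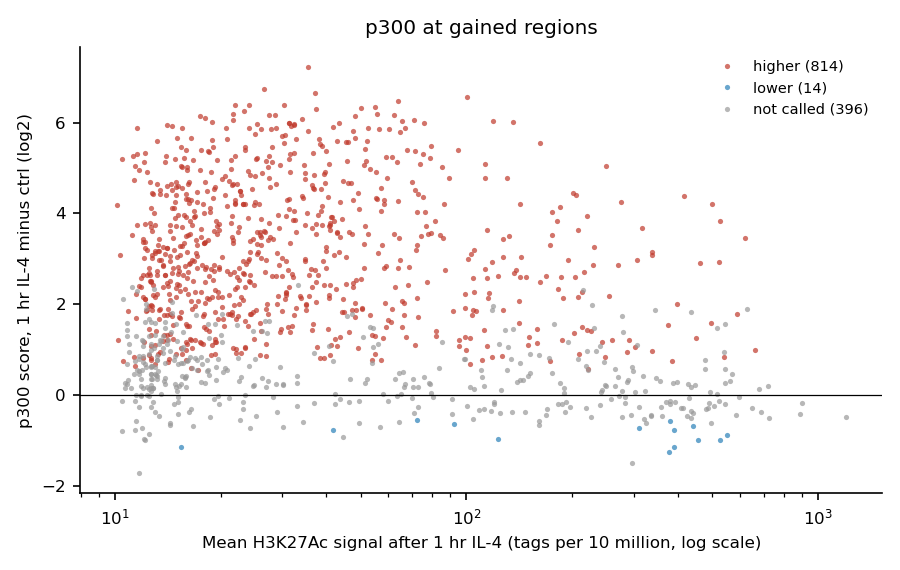
Fitted difference of the p300 score after 1 hr IL-4 (log2, vertical axis) against the mean H3K27Ac signal of the 2 IL-4 libraries (tags per 10000000, log horizontal axis), with 1 point for each of the 1224 gained regions tested. The 814 regions called higher are mostly of low signal, and the strongest regions lie near 0.

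The STAT6-type motif and p300 occurred together. Of the 814 gained regions called higher for p300, 488 (60%) held the motif, compared with 55 of 418 (13.2%) not called and 3 of 14 called lower. Read the other way, 488 of the 546 gained windows with the motif (89.4%) and 326 of the 700 without it (46.6%) were called higher for p300. These splits were not made over all merged regions, so whether they are particular to gained regions was not tested. The motif was in 47.1% of gained regions with a signal under 80, 37.1% between 80 and 320, and 22.0% above that. The windows were placed by p300 itself, and with windows on the middle of the region the motif was in 31.4% of gained, 5.16% of lost and 8.13% of always listed regions.

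PU.1 was already present at part of the gained regions and its peaks increased in number. They were at 651 and 591 gained regions in ctrl (50.3% and 45.6%) and at 906 and 926 after IL-4 (70.0% and 71.5%), whereas over all merged regions the shares were 64.9% and 59.3% in ctrl and 63.4% and 65.4% after IL-4. Both 1hIL4 scores were above both ctrl scores at 518 gained regions (40%) and below at 84, compared with 13.0% and 18.9% of all merged regions. A peak in both 1hIL4 lists and neither ctrl list was at 193 gained regions (14.9%, compared with 2.25% of all). In limma, 55 of the 895 gained regions tested were called higher and 0 lower (338 and 17 at an unadjusted p of at most 0.05), where 0.535% of all tested regions were higher and 0.0186% lower. At the unadjusted level 6.46% of all tested regions were higher and 4.92% lower. Of the 55, 23 had no ctrl peak, and with a peak required in all 4 lists 55 of 495 were higher and 2 lower. The calls in either direction were 0 without centring, 26 and 23 without 1hIL4 replicates 1 and 2, and 212 and 178 without ctrl replicates 1 and 2.

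The named PU.1 calls were near St8sia1, Tlr4 and Gm20125. In an intron of St8sia1, which encodes a sialyltransferase, PU.1 was 48.1 and 30.3 in ctrl and 204 and 175.5 after IL-4 (log2 difference 1.88, SE 0.22, limma adjusted p = 0.00829). Downstream of the start of Tlr4, the receptor of LPS, it was 8.00 and 5.64 in ctrl and 80.2 and 90.5 after IL-4 (log2 difference 3.23, SE 0.38, limma adjusted p = 0.00829). The Gm20125 region had 5.01 and 2.94 in ctrl and 111.4 and 64.7 after IL-4. Both 1hIL4 scores were above both ctrl scores at all 3. Of the 55 regions called higher for PU.1, 53 (96.4%) were also called higher for p300, and these were 6.51% of the 814 regions called for p300. Among all tested gained regions 66.5% were called higher for p300, and joint calls were not counted over all merged regions.

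Deacetylase peaks also became more frequent at the gained regions. HDAC1 peaks were at 404 and 334 gained regions in ctrl and 573 and 523 after IL-4, HDAC2 peaks at 329 and 313 and then 751 and 563, and HDAC3 peaks at 196 and 137 and then 435 and 373. Over all merged regions the shares were 62.5% and 56.6% in ctrl and 51.0% and 49.1% after IL-4 for HDAC1, 48.9% and 44.2% and then 56.2% and 41.7% for HDAC2, and 25.1% and 17.8% and then 28.2% and 24.8% for HDAC3. Both 1hIL4 scores were above both ctrl scores at 420 (32.4%) gained regions for HDAC1, 523 (40.4%) for HDAC2 and 225 (17.4%) for HDAC3, compared with 13.7%, 17.8% and 7.42% of all merged regions. They were below at 52, 32 and 28, compared with 14.3%, 10.1% and 7.6% of all merged regions.

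Few of these differences passed the test. In limma 0 gained regions were called for HDAC1 (0.0% of all regions tested), with 162 higher and 13 lower of 529 at an unadjusted p of at most 0.05, where 4.34% and 7.09% of all regions were. For HDAC2 0 were called (0.0% of all), with 204 higher and 6 lower of 582 unadjusted, where 5.95% and 4.40% of all regions were. For HDAC3 17 of 354 were called higher and 0 lower, where 1.08% of all tested regions were higher and 0.0588% lower, with 155 higher and 3 lower at the unadjusted level, where 11.8% and 5.74% of all were. Of the 17, 9 had no ctrl peak, and with a peak required in all 4 lists 6 of 105 were higher. The HDAC3 calls in either direction were 0 without centring, 3 and 1 without 1hIL4 replicates 1 and 2, and 83 and 67 without ctrl replicates 1 and 2, and for HDAC2 leaving out ctrl replicate 1 or 2 gave 43 or 37 higher calls.

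The smallest p-values for HDAC3 were at Syce1l, Pim3 and Tlr4. The ranks of Pim3 and Tlr4 rest on the set lowest score in ctrl. At the Syce1l region, 644 bp from the start, HDAC3 was 11.9 and 5.83 in ctrl and 53.1 and 42.9 after IL-4 (log2 difference 2.22, SE 0.33, limma adjusted p = 0.000783). Upstream of Pim3 there was no HDAC3 peak in ctrl and 41.8 and 30.1 after IL-4. The region 23750 bp downstream of the start of Tlr4 had no HDAC3 peak in ctrl and 29.3 and 42.3 after IL-4. For HDAC1 and HDAC2 the smallest p was near Dars, an aspartyl-tRNA synthetase gene, where HDAC2 was 3.38 and 2.71 in ctrl and 23.6 and 26.3 after IL-4 (limma adjusted p = 0.0801) and HDAC1 had no ctrl peak and 21.2 and 16.2 after IL-4.

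Acetyltransferase and deacetylases occurred together after IL-4 at shares of the gained regions close to those of all merged regions. Counting peaks in both 1hIL4 lists, p300 and PU.1 were together at 828 gained regions (63.9%, 57.7% of all merged regions), p300 without PU.1 at 386 (29.8%, 34.4% of all), and p300, PU.1 and at least 1 HDAC at 546 (42.2%, 39.9% of all). At least 1 HDAC was at 628 (48.5%, 51.8% of all) and all 3 at 209 (16.1%, 15.3% of all), and 172 (13.3%, 13.2% of all) held p300, PU.1, all 3 HDACs and RNAPII-pS5. None of the 7 antibodies had a peak in both lists at 27 gained regions (2.08%, 3.75% of all). Of the 17 gained regions called higher for HDAC3, 16 were called higher for p300, as were 66.5% of all tested gained regions. Joint calls were not counted over all merged regions.

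**Figure D3:**
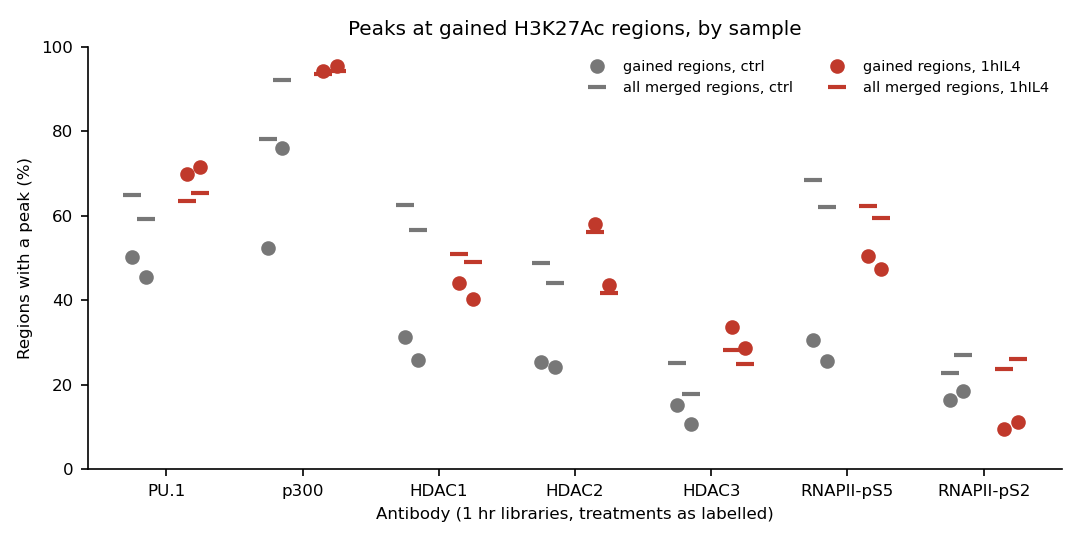
Share of regions with a peak (%, vertical axis) for the 7 antibodies of the 1 hr experiment (horizontal axis), with 1 point per library for the 1295 gained regions and 1 bar per library for all 31999 merged regions, treatments as labelled. The p300 points of the gained regions stand at 52.4% and 76.0% in ctrl and at 94.2% and 95.5% after IL-4, and RNAPII-pS2 is the only antibody whose points are lower in the libraries labelled 1hIL4.

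Initiating polymerase was called higher at fewer gained regions than p300. RNAPII-pS5 peaks were at 395 and 332 gained regions in ctrl (30.5% and 25.6%) and at 653 and 612 after IL-4 (50.4% and 47.3%), whereas over all merged regions the shares were 68.5% and 62.0% and then 62.4% and 59.5%. Both 1hIL4 scores were above both ctrl scores at 365 gained regions (28.2%) and below at 63, compared with 17.0% and 21.2% of all merged regions. A peak in both 1hIL4 lists and neither ctrl list was at 197 (15.2%, compared with 1.93% of all). In limma 105 of 586 tested gained regions were called higher and 0 lower, where 2.01% of all tested regions were higher and 0.821% lower. At an unadjusted p of at most 0.05, 270 were higher and 16 lower, where 10.7% and 10.4% of all tested regions were. Of the 105, 87 had no ctrl peak, and with a peak required in all 4 lists 24 of 290 were higher and 2 lower. The calls in either direction were 0 without centring and 23 and 25 without 1hIL4 replicates 1 and 2. Of the 105, 99 (94.3%) were also called higher for p300, which is 12.2% of those called for p300. Among all tested gained regions 66.5% were called higher for p300, and joint calls were not counted over all merged regions.

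The smallest RNAPII-pS5 p-values were near Gpc1, Tax1bp1 and Pim3, at regions without a ctrl peak. Their rank therefore rests on the set lowest score in ctrl. Upstream of Gpc1, which encodes a cell-surface proteoglycan, there was no RNAPII-pS5 peak in ctrl and 48.4 and 46.7 after IL-4. Downstream of the start of Tax1bp1, an autophagy receptor gene, there was none in ctrl and 42.2 and 44.2 after IL-4, and upstream of Pim3 none in ctrl and 44.0 and 29.0 after IL-4. At these 3 regions p300 was also higher, for example at Gpc1 with 5.56 and 22.7 in ctrl and 223 and 216 after IL-4.

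RNAPII-pS2 at 1 hr moved the opposite way by the labels. Peaks were at 213 and 239 gained regions in the libraries labelled ctrl and at 122 and 145 in those labelled 1hIL4. Over all merged regions the shares were 22.7% and 27.1% and then 23.7% and 26.0%. Both libraries labelled 1hIL4 were below both labelled ctrl at 147 gained regions and above at 39, compared with 9.41% and 6.86% of all merged regions. In limma 0 of 203 gained regions were called higher and 4 lower in the libraries labelled 1hIL4, where 0.124% and 0.248% of all tested regions were. At an unadjusted p of at most 0.05, 16 were higher and 72 lower, where 11.1% and 11.2% of all tested regions were. Leaving out the library labelled ctrl replicate 1 turned this to 5 higher and 2 lower, and leaving out ctrl replicate 2 to 4 and 3. Near Rmi2 the scores were 35.3 and 34.7 in the libraries labelled ctrl with no peak in those labelled 1hIL4, and near Gpc1 30.7 and 24.1 with no peak. At 319 gained regions the deposited RNAPII-pS5 scores after IL-4 were above both ctrl scores, and there RNAPII-pS2 was below in the libraries labelled 1hIL4 at 72 and above at 5. These counts were not made over all merged regions. By the peak names the directions of RNAPII-pS2 would be reversed, and whether the labels or the names are right was not tested.

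Polymerase at the gained regions was also measured in the second experiment, after 24 hr of IL-4. RNAPII-pS5 peaks were at 230 and 208 gained regions in cells without IL-4 (17.8% and 16.1%), compared with 334 and 346 at 24 hr (25.8% and 26.7%). Over all merged regions the shares were 42.3% and 39.6% and then 42.2% and 43.7%. RNAPII-pS2 peaks were at 346 and 341 gained regions (26.7% and 26.3%) and then 433 and 432 (33.4% in each). Over all merged regions these shares were 54.3% and 54.1% and then 47.7% and 49.7%. In limma over all 8 libraries of each antibody, 102 of 434 tested gained regions were called higher and 21 lower for RNAPII-pS5, where 8.62% and 6.42% of all tested regions were. For RNAPII-pS2 141 of 616 were called higher and 41 lower, where 10.7% and 11.4% of all were. No peak in either control library was behind 90 of the 102 and 115 of the 141 higher calls, and no peak after 24 hr behind 19 of the 21 and 35 of the 41 lower calls. With a peak required in all 8 libraries, RNAPII-pS5 had 7 higher and 1 lower and RNAPII-pS2 had 23 higher and 7 lower. The RNAPII-pS5 total fell from 123 to between 41 and 62 when any 1 of the 4 libraries compared was left out, and the RNAPII-pS2 total fell from 182 to 108 without ctrl/ctrl replicate 1.

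Regions with polymerase called higher at 24 hr included those near Gpc1 and Gfra2. The 1 hr and 24 hr values come from separate experiments with separate controls. The Gpc1 region had no RNAPII-pS2 peak in untreated cells and 19.5 and 24.1 after 24 hr. Upstream of Gfra2, a receptor of the neurturin ligand, RNAPII-pS5 had no peak in untreated cells and 16.8 and 20.5 after 24 hr, and at 1 hr it was 6.09 and 4.86 in ctrl and 26.5 and 24.9 after IL-4. The region near Gda, the guanine deaminase gene, had no RNAPII-pS2 peak in untreated cells and 39.1 and 33.7 after 24 hr. Among the lower calls were Coq10a, where RNAPII-pS5 was 9.44 and 10.3 in untreated cells with no peak after 24 hr, and a region near Ifng, where RNAPII-pS2 was 16.5 and 16.4 with no peak after 24 hr. By the deposited scores RNAPII-pS5 was above both controls at 1 hr at 319 gained regions, at 24 hr at 177, and at both times at 92. These counts were not made over all merged regions. With centred scores, RNAPII-pS5 at 24 hr was above both controls at 229 gained regions (17.7%) and below at 64 (4.94%). The shares of all merged regions were 17.0% and 12.7%, so the share above was close to that of all regions.

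p65 binding after LPS was compared between cells with and without 24 hr of IL-4 pretreatment. p65 peaks were at 360 and 376 gained regions after LPS alone (27.8% and 29.0%) and at 531 and 544 after IL-4 and LPS (41.0% and 42.0%), and over all merged regions at 41.2% and 42.2% and then 48.9% and 51.3%. Without LPS they were at 147 and 137 gained regions, or 220 and 221 with IL-4, and at 19.8% in each, or 24.2% and 22.5% with IL-4, of all merged regions. In limma 130 of 552 tested gained regions were called higher and 15 lower with pretreatment, where 10% and 2.84% of all tested regions were. The lost regions also had more higher than lower calls, 108 and 22 of 660. With centred scores, both pretreated libraries were above both LPS-alone libraries at 22.4% of gained and 18.3% of all merged regions. They were below at 9.03% of gained and 14.3% of all merged regions. Of the 130, 102 had no peak in either library with LPS alone. No gained region was called when either of the IL-4 and LPS libraries was left out, and with a peak required in all 8 libraries 0 were higher and 3 lower. A region near Ang2 had no p65 peak after LPS alone and 34.2 and 44.1 with pretreatment. The region upstream of Slc7a2 had 3.69 and 5.25 after LPS alone and 40.7 and 37.3 with pretreatment (log2 difference 2.90, limma adjusted p = 0.00489). Near Fyb, which encodes an adaptor protein, p65 fell from 182 and 174.5 to 126 and 123.5 (log2 difference −0.76, SE 0.08, limma adjusted p = 0.00489).

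Genes of alternative activation, the program that IL-4 induces in macrophages, were the nearest genes of 7 gained regions. Of the 26 listed genes with any merged region, 5 (19.2%) had a gained region, compared with 8.60% of all 13385 genes, and 6 (23.1%) had a lost region. Genes with more merged regions have more chances of a gained one. Of the 111 merged regions of these genes 6.31% were gained, compared with 4.05% of all merged regions. p300 was called higher at all 7 regions, RNAPII-pS5 at 5 of 6 tested and PU.1 at 1 of 7. Of all tested gained regions 66.5%, 17.9% and 6.15% were called higher for these antibodies. A region without a ctrl peak enters these counts with its ctrl scores set to the lowest score. Among all 105 RNAPII-pS5 higher calls at gained regions 87 were of that kind. At the start of Pdcd1lg2, p300 had no peak and 8.53 in ctrl and 244 and 230 after IL-4 (limma adjusted p = 8.98e-08), RNAPII-pS5 had none in ctrl and 23.7 and 24.6 after IL-4, and 31678 bp downstream p300 was 9.60 and 21.0 and then 196.5 and 191 (log2 difference 3.04, SE 0.21). Upstream of Slc7a2 by 11058 bp, p300 was 11.1 and 45.8 in ctrl and 197 and 222 after IL-4 (log2 difference 2.49), and 535 bp upstream it had no peak and 5.68 in ctrl and 173 and 172 after IL-4. These 4 regions showed no overlap of the p300 groups.

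Klf4, a transcription factor of alternative activation, had a gained region 34975 bp upstream where p300 was 11.1 and 50.8 in ctrl and 213.5 and 206 after IL-4 (log2 difference 2.41, SE 0.21). PU.1 there had no peak and 3.03 in ctrl and 40.1 and 41.0 after IL-4 (limma adjusted p = 0.0423), and RNAPII-pS5 had none and then 27.8 and 18. At Fcgr2b p300 was 27.4 and 76.5 in ctrl and 227 and 202 after IL-4 (log2 difference 1.5, SE 0.19), and at Flt1, a receptor of vascular endothelial growth factor, 6.12 and 20.0 and then 42.1 and 54.9 (log2 difference 1.39, SE 0.31). The p300 groups did not overlap at any of the 3 genes.

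Genes of the IL-4 receptor pathway were the nearest genes of 7 gained regions at 6 of 16 listed genes (37.5%, and 1 of 16 had a lost region). Of the merged regions of these genes 10.9% were gained, compared with 4.05% of all merged regions. p300 was called higher at 4 of the 6 regions tested and RNAPII-pS5 at none of 5, where 66.5% and 17.9% of all tested gained regions were. Downstream of Socs1, which encodes a feedback inhibitor of Janus kinases, p300 had no peak in ctrl and 150 and 164 after IL-4. At Bcl6, a transcriptional repressor gene, p300 39056 bp upstream was 9.16 and 48.0 in ctrl and 148 and 162 after IL-4 (log2 difference 2.15), and 132336 bp upstream it was 30.1 and 95.4 and then 185 and 178 (log2 difference 1.03). In an intron of Il4ra, the alpha chain of the receptor, it was 10.8 and 50.2 in ctrl and 109 and 109 after IL-4 (log2 difference 1.49, limma adjusted p = 0.000182). At Stat3 the p300 scores were 3.09 and 7 in ctrl and 8.26 and 9.04 after IL-4 (limma adjusted p = 0.893), and at Ptpn6, a tyrosine phosphatase gene, 40.1 and 104.5 and then 77.4 and 101 (limma adjusted p = 0.356). The Stat5b region had no p300 peak in any list.

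**Figure D4:**
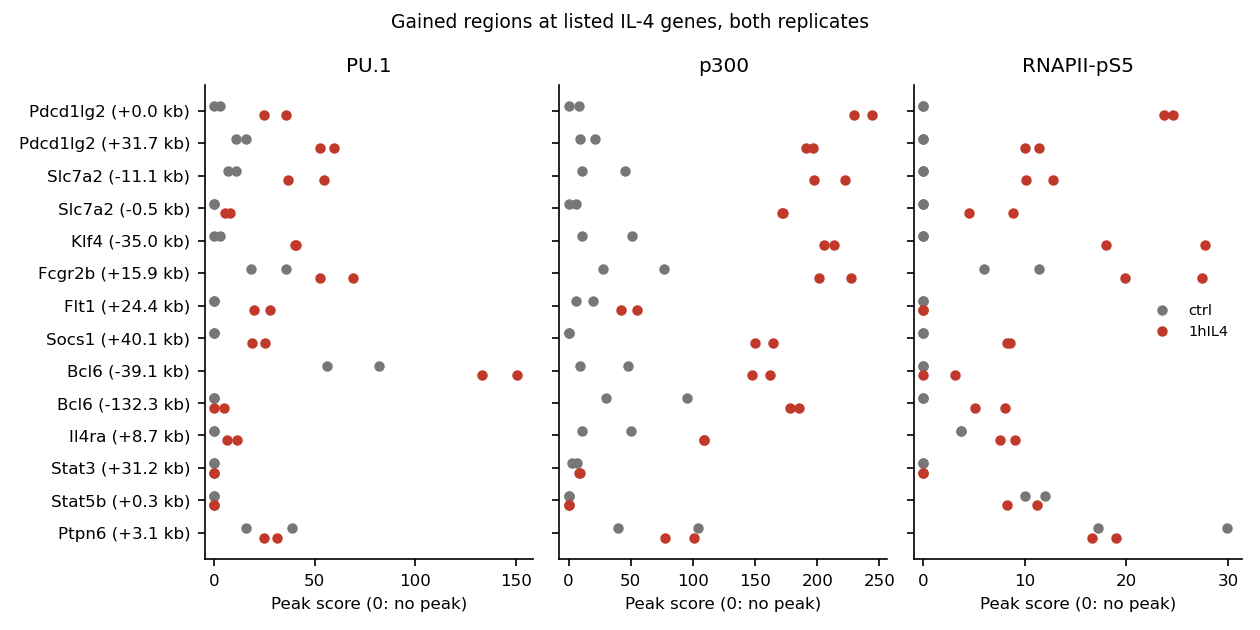
Deposited peak scores (horizontal axes, 0 where a list held no peak) of PU.1, p300 and RNAPII-pS5 at the 14 gained regions nearest to listed alternative activation and IL-4 pathway genes, with the distance to the gene start in kb and 1 point per replicate. The p300 points after IL-4 lie above both ctrl points at all regions but those of Stat5b, which held no peak, and Ptpn6, where the groups overlap.

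Inflammatory genes had 6 gained regions at 4 of 25 listed genes (16.0%, and 24.0% had a lost region). Of the merged regions of these genes 7.41% were gained, compared with 4.05% of all merged regions. For the corepressor and lipid lists below these shares were 1.82% and 7.27%. p300 was called higher at 4 of the 6, where 66.5% of all tested gained regions were. Among the 4 were both Tlr4 regions and a region 19492 bp upstream of Il6, the interleukin-6 gene, with 16.7 and 42.9 in ctrl and 100 and 147 after IL-4 (log2 difference 1.45, limma adjusted p = 0.000203). Upstream of Il1a, the interleukin-1 alpha gene, p300 10245 bp away was 36.1 and 104 in ctrl and 203 and 174 after IL-4 (log2 difference 0.88, limma adjusted p = 0.00421). At Fos, an AP-1 subunit, it was 34.2 and 77.0 in ctrl and 116.5 and 88.6 after IL-4 (limma adjusted p = 0.451). Of 12 corepressor and acetyltransferase genes 1 (8.33%) had a gained region: Hdac9, a deacetylase gene, where p300 had no ctrl peak and 170 and 170 after IL-4. Of 13 lipid-sensing and cholesterol genes 3 (23.1%) had 4 gained regions, with 1 of 4 called higher for p300: the region 19525 bp downstream of the start of Pparg, a nuclear receptor gene, with 16.3 and 84.5 in ctrl and 117 and 118 after IL-4 (limma adjusted p = 0.00867). A further region near Pparg and a region near Abcg1 had limma adjusted p of 0.0653 and 0.405.

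The study's own expression clusters, made from RNA-seq of other libraries, group genes that IL-4 induced (A to D) or repressed (E). A gained region was nearest to 10 of 30 cluster A genes (33.3%), 51 of 152 in B (33.6%), 66 of 269 in C (24.5%), 48 of 421 in D (11.4%) and 52 of 568 in E (9.15%). Lost regions were nearest to 23.3%, 15.8%, 16.7%, 10.9% and 16.9% of the same genes, and to 9.79% of all genes. Of the merged regions of each cluster 12.3%, 11%, 7.24%, 4.94% and 2.71% were gained. p300 was called higher at 12 of 13 tested gained regions of cluster A, 49 of 58 in B, 63 of 75 in C, 34 of 53 in D and 25 of 52 in E, and RNAPII-pS5 at 8 of 11, 15 of 38, 12 of 35, 6 of 28 and 1 of 37. Of all tested gained regions 66.5% were called higher for p300 and 17.9% for RNAPII-pS5. No ctrl peak was behind 206 of all 814 p300 higher calls and 87 of all 105 RNAPII-pS5 higher calls. Genes with more merged regions have more chances of a gained one, and the shares were not tested.

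**Figure D5:**
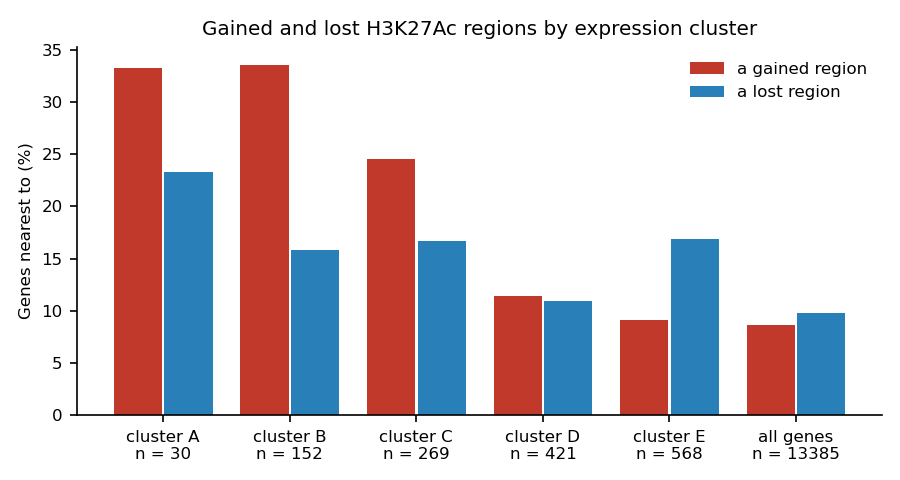
Share of genes (%, vertical axis from 0) that were the nearest gene of a gained or a lost H3K27Ac region, for the 5 expression clusters of the study and all 13385 genes with a merged region (horizontal axis, n genes). Gained bars are 33.3% and 33.6% in clusters A and B and fall to 9.15% in cluster E, and the lost bar of E, 16.9%, is the only one above its gained bar within the clusters.

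Gained regions were spread over 1151 nearest genes, 122 of which had at least 2 and 18 at least 3. Slc45a1, a sugar transporter gene, had the most, with 5 of its 17 merged regions gained and 3 lost. Of its 5 gained regions the one 91418 bp upstream had no p300 peak and 16.9 in ctrl and 234 and 200 after IL-4 (limma adjusted p = 2.63e-06), and the one 163518 bp downstream had 15.0 and 52.3 and then 49.7 and 41.4 (limma adjusted p = 0.935). Ttc27 and 4930578N18Rik had 4 each, and Nampt, Zc3h12c, Tax1bp1, 4930428G15Rik, Oxr1, Mpp6 and Ninj2 had 3. At the 3 regions nearest to Oxr1, which encodes an oxidation resistance protein, p300 after IL-4 was 276 and 290, 160 and 202, and 81.1 and 83.0, above every ctrl score at each.

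RNAPII-pS5 at the promoters of the nearest genes did not pass the test. Of the 1151 genes 557 had promoter peaks in at least 2 lists, and limma called 0 higher and 0 lower (0.0% of all 7612 genes in each direction). At an unadjusted p of at most 0.05, 42 were higher and 48 lower, where 4.14% and 5.57% of all genes were. Both 1hIL4 values were above both ctrl values at 23.7% of these genes and below at 24.8%, compared with 19.1% and 21.8% of all genes tested. Of the 10 listed alternative activation genes tested, with or without a gained region, 3 were higher and 3 lower at the unadjusted level. Of the 12 IL-4 pathway genes tested, also with or without a gained region, 1 was higher and 1 lower at the unadjusted level. Socs1 had a log2 difference of −3.21 (SE 1.11, limma adjusted p = 0.501), with no promoter peak in 1hIL4 replicate 2. Bcl6 had no promoter peak in either ctrl library and centred log2 scores of 4.71 and 5.43 after IL-4. Because 2 samples were compared with 2, an exact permutation test of a single region could not give a two-sided p below 0.333.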

How the data were processed

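ChIP-seq peak lists of 56 BMDM samples were analysed, 1 list per sample with replicates not pooled. Per the submitters' processing notes the tools were BWA 0.7.10, SAMtools 0.1.19, HOMER 4.2 and MACS2 2.0.10 with the mm10 build (GRCm38). The deposited H3K27Ac values are signal, tags per 10000000 in a region, which imply 28800000 to 32600000 tags per library, so the lowest regions held 27 to 30 tags. For the other antibodies the deposited peak scores are on a −log10 p scale, inferred from the values, so they grow with depth, which is unknown. Locations and nearest genes are the annotation that the authors deposited.

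The gained regions, gene lists and tests were chosen with earlier results of these data known. For each antibody the highest peak score overlapping a merged region by 1 bp or more was taken, a missing peak received the lowest score of the lists compared, and log2 scores were centred per library on regions with a peak in every library. Regions with a peak in at least 2 libraries were fitted with limma 3.58.1 (R 4.3.3; trend, no replicate term) and adjusted by Benjamini-Hochberg over all regions, at 0.05. A fitted difference is therefore one of log2 peak score, not of binding. The other tools were Python 3.11.15, pandas 2.3.3, NumPy 2.4.6 and SciPy 1.17.1, and the fits were tested on simulated data. Same-numbered replicates did not deviate together (largest correlation 0.083). Named regions were the 10 of highest H3K27Ac signal, the 10 genes with most gained regions, the 3 smallest adjusted p per antibody and direction (or the 1 smallest p), and gained regions nearest to listed genes. Other regions and genes named in the text were chosen after their values were seen. Alternatives varied the joining distance, floor, centring, filter and replicate. RNAPII and p65 levels after LPS other than those given were not analysed here, and single values of some listed genes are not reported here.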

Additional observations from a re-analysis of the deposited data

Results flagged for a closer look

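RNAPII-pS2 at the gained regions moved in opposite directions in the 2 experiments when the labels were followed. At 41 gained regions both libraries labelled 1hIL4 were below both libraries labelled ctrl at 1 hr, while both libraries with 24 hr of IL-4 were above both untreated libraries of the second experiment. The reverse was seen at 11 gained regions, and the same direction at both times at 10 (above) and 11 (below). The difference between the times was not tested, and these joint counts were not made over all merged regions. In the 1 hr lists the peak names carry the opposite treatment to the labels, and whether the labels or the names are right was not tested.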

How the results depend on the processing

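Of 102 alternative counts other than those leaving out a library, 59 stayed within 1.5 times the main count, 42 did not and 1 reversed; the causes were not tested beyond each setting's own construction. Counts are gained regions called in either direction. Joining regions up to 10000 bp apart left 704 gained regions in place of 1295, and leaving out 1 H3K27Ac library gave 1703 to 1942. Without centring the calls were 0 for PU.1, 508 for p300, 0 for HDAC3, 0 for RNAPII-pS5 at 1 hr and 0 for RNAPII-pS2 at 1 hr. With a floor 4 times as high they were 107 for PU.1, 5 for HDAC1, 5 for HDAC2, 16 for RNAPII-pS2 at 1 hr, 41 for RNAPII-pS5 and 117 for RNAPII-pS2 at 24 hr, and 243 for p65. With a peak required in every library they were 408 for p300, 2 for HDAC1, 3 for HDAC2, 6 for HDAC3, 26 for RNAPII-pS5 and 8 for RNAPII-pS2 at 1 hr, 8 and 30 at 24 hr, 3 for p65 (0 higher and 3 lower, the reverse of the main balance) and 8 genes for promoters. With a peak in at least 1 library they were 96 for PU.1, 19 for HDAC2, 36 for HDAC3 and 19 for RNAPII-pS2 at 1 hr. With the upper 50% of peaks they were 0 for PU.1, 0 for HDAC3, 45 for RNAPII-pS2 at 1 hr, and 61 for RNAPII-pS5 and 111 for RNAPII-pS2 at 24 hr. Without adjustment they were 355 for PU.1, 175 for HDAC1, 210 for HDAC2, 158 for HDAC3, 286 for RNAPII-pS5 and 88 for RNAPII-pS2 at 1 hr, 240 for p65 and 90 genes for promoters. Leaving out 1 library at a time gave 23 to 212 for PU.1, 490 to 949 for p300, 0 to 10 for HDAC1, 0 to 43 for HDAC2, 1 to 83 for HDAC3, 23 to 103 for RNAPII-pS5 and 7 to 18 for RNAPII-pS2 at 1 hr (7 without either library labelled ctrl, with more higher than lower calls), 41 to 62 and 108 to 126 at 24 hr, 0 to 121 for p65 and 0 to 3 genes for promoters. With windows chosen after seeing the data, the share with the STAT6-type motif was 38% of gained, 2.90% of lost and 6.95% of always listed regions in 200 bp, 50.2%, 9.82% and 14.7% in 500 bp, and 31.4% of gained and 8.13% of always listed regions around the middle of the region.

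The replicate numbers did not pair the samples. With the replicate block the calls were 114 for PU.1, 0 for HDAC3 and 2 for RNAPII-pS2 at 1 hr, and the block moved no other count by over 1.5 times (852 for p300).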
